A study of Homo sapiens with 18 samples.

Results

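The difference between 2 cytarabine responses was measured in derivatives of U2OS, a human osteosarcoma cell line. One line overexpressed wild-type DNMT3A (WT) and the other mutant DNMT3A (MUT), which the series text calls R882C and the sample labels call R882H. Each line was sampled untreated, which the series text calls a vehicle control, and after 24 h with 10 µM cytarabine, in 3 biological replicates per group. These 12 libraries, of 18 in the series, were chosen by line and treatment. The other 6 came from U2OS cells with the empty MigR1 retroviral vector (EV), untreated or given the same dose for the same time. The sources used here do not say whether a line was 1 clone or a pool, and the lines still had their own DNMT3A gene. For each gene, the log2 fold change in WT was subtracted from that in MUT. A positive value means a larger rise or a smaller fall in MUT. All genes with enough reads were compared, 18226 of the 25296 listed.

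DNMT3A places methyl groups on cytosines that carried none, chiefly at CG pairs (CpG), and its mutations are common in acute myeloid leukaemia, with arginine 882 the residue most often changed. Cytarabine is a cytidine analogue used against that leukaemia. Cells take it up, phosphorylate it and build it into DNA, where it hinders the replication fork and sets off checkpoint and p53 signalling. U2OS cells carry wild-type p53.

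Libraries held 17.1 to 21.6 M estimated counts. DNMT3A checked the labels. It measured 131, 129 and 139 CPM (counts scaled to 1 M per library) in untreated WT, 182, 166 and 181 in treated WT, 499.7, 615 and 254 in untreated MUT and 532, 515 and 525 in treated MUT. Every MUT library was above every WT library, and untreated MUT replicate 3 was the lowest of the MUT libraries. The value sums the cells' own and the introduced gene, so it does not show which allele was read. Its response difference was -0.20 (SE 0.254, adjusted p = 0.761), and -0.53 (adjusted p = 0.0103) without untreated MUT replicate 3. The mesenchymal markers VIM and SPARC were high in every library (1078 to 2602 and 877 to 1171 CPM), while COL1A2 was low (0.343 to 8.11 CPM) and TWIST1 is not analysed here. The summed level of 9 leukocyte, endothelial, epithelial and red cell markers was 4.67 to 5.20 CPM in untreated WT, 7.56 to 9.38 in treated WT, 8.11 to 10.6 in untreated MUT and 15.4 to 22.2 in treated MUT. CD14 and HBB were at 0 in 9 and 7 of the 12 libraries. CDH5, KRT5, VWF and EPCAM were at 0 in none and reached the highest levels of the 9, up to 6.37, 5.01, 4.17 and 4.01 CPM. The part of these low signals in the results was not tested. The untreated MUT libraries stood apart in spread: their biological coefficient of variation was 0.216, against 0.0398 in untreated WT, 0.0487 in treated WT and 0.0696 in treated MUT.

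The response differed between the lines for 183 of 18226 genes, which is 1.00% (edgeR quasi-likelihood F test, Benjamini-Hochberg adjusted p under 0.05). The difference was positive for 93 genes (0.510%) and negative for 90 (0.494%). Within WT 26.3% of tested genes rose and 22.7% fell (49.0% in all), within MUT 30.4% rose and 25.9% fell (56.3%), and within EV 49.1% responded. Of the 183 genes, 48 responded in the same direction in both lines but more strongly in MUT, with 26 rises and 22 falls. Another 38 responded in the same direction but more weakly in MUT, with 27 rises and 11 falls. For 25 genes the responses were opposite: 17 fell in WT and rose in MUT, and 8 did the reverse. A further 38 passed the threshold within MUT alone and 34 within WT alone. The fit assumes equal spread in all groups, with a common biological coefficient of variation of 0.104. That of untreated MUT alone was 0.216 and that of untreated WT alone 0.0398. The part of this mismatch in the within-line shares and in these classes was not tested. The median size of the difference was 0.62 on the log2 scale, and 30 genes reached 1. A total of 2810 genes had an unadjusted p under 0.05.

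Leaving out 1 library moved the number of calls. Without untreated MUT replicate 1, 2 or 3 it was 810, 674 or 337, and without any 1 of the other 9 libraries it was 38 to 112 (38 without treated WT replicate 2). The near-even split into 50.8% positive and 49.2% negative also moved with the scaling, to 29.1% positive of 278 calls with DESeq2 size factors, 44.4% of 243 with upper-quartile factors and 74.1% of 228 with library totals alone. A fit of the 12 libraries alone called 51 genes, 50 of them among the 183, and DESeq2 called 795, 179 of them among the 183. All 183 kept the sign of their difference in each alternative that tested them. Of the 183 genes, 34 passed in each of the 12 fits that left out a single library, 22 with a positive difference, and 9 of those 22 responded in opposite directions. Beside a called gene that passed fewer than 12 of those fits, the number passed or the libraries without which it missed the threshold are given.

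**Figure D1:**
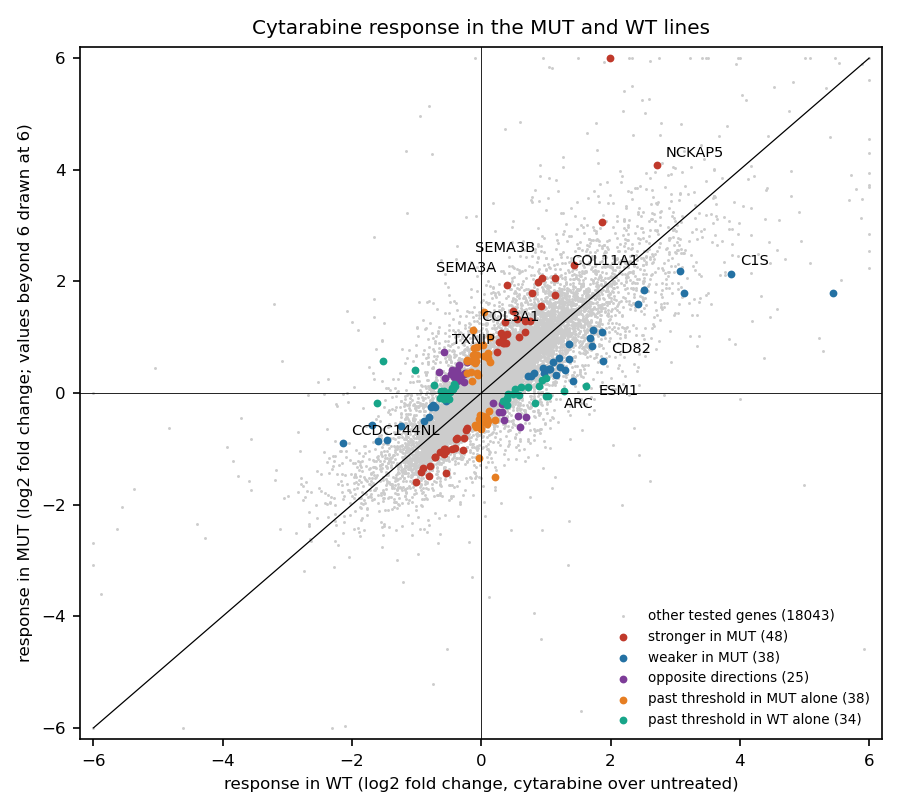
Each point is 1 of 18226 tested genes, placed by its log2 fold change with cytarabine in WT (horizontal) and MUT (vertical); the diagonal marks equal responses and colours mark the 183 genes whose responses differed. Most genes lie along the diagonal, C1S and CD82 lie below it on the side of rises, and SEMA3A, SEMA3B and COL11A1 lie above it.

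Most responses ran the same way in both lines. Of 7422 genes past the threshold in both lines with the same sign, 63.7% had the larger response in MUT. The median size was 0.62 in WT and 0.72 in MUT. Over all 18226 tested genes the share was 60.0%, with median sizes of 0.39 in WT and 0.46 in MUT. The part of the wider spread of untreated MUT in these shares was not tested. Among the 7422 genes the share was 58.2% of 3981 rises and 70.1% of 3441 falls. Over all alternatives the share ran from 60.1% (a test against a log2 change of 0.5, glmTreat) to 69.1% (without untreated MUT replicate 1) for both directions together. For rises it ran from 49.6% without untreated WT replicate 2 to 66.7% with library totals alone, and for falls from 65.0% with library totals alone to 77.5% without untreated MUT replicate 2. The higher share for falls was thus not seen with library totals alone. Only 29 genes passed in both lines with opposite signs, and for 25 of them the difference itself passed. The sizes of opposite responses add up in their difference, so its passing was largely set by that choice.

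The smallest p-values belonged to rises that were weaker in MUT. CD82, a tetraspanin of the cell surface that restrains cell motility, measured 31.7, 30.1 and 30.9 CPM in untreated WT and 112, 117 and 113 CPM in treated WT. In MUT it measured 51.6, 45.5 and 51.5 CPM untreated and 78.3, 73.4 and 68.4 CPM treated. It started higher in MUT and ended lower, with no overlap between any of the 4 groups. The rise was 3.70-fold in WT and 1.48-fold in MUT, for a response difference of -1.32 (SE 0.110, adjusted p = 2.23e-06). ARC, an immediate early gene best known for its role at synapses, measured 18.5, 17.6 and 20.4 CPM in untreated WT, 49.5, 50.1 and 51.01 in treated WT, 51.1, 53.8 and 57.5 in untreated MUT and 62.1, 63.5 and 63.4 in treated MUT. The untreated MUT libraries were already above the treated WT libraries. ARC rose 2.67-fold in WT and 1.16-fold in MUT, and the difference was -1.20 (SE 0.0960, adjusted p = 2.23e-06). These were the only genes whose difference exceeded 0.5 on the log2 scale in a test against that size.

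C1S, a serine protease that starts the classical complement cascade, was at 0.883, 1.38 and 1.21 CPM in untreated WT and 15.3, 19.7 and 15.9 CPM in treated WT. In MUT it was at 2.41, 2.14 and 2.86 CPM untreated and 11.03, 11.3 and 10.5 CPM treated. Its 14.6-fold rise in WT was a 4.41-fold rise in MUT, with a difference of -1.73 (SE 0.279, adjusted p = 0.00591). It was the 1 of 15 tested complement genes past the threshold (6.67%, against 1.00% of all tested genes). The median difference of that list was 0.21, but 0.03 without untreated MUT replicate 2 and 0.02 over the 10 members with a mean of at least 50 counts. GPRC5C, an orphan receptor chosen after its values were seen, rose by 1.72 in WT and 0.85 in MUT on the log2 scale, with a difference of -0.87 (SE 0.146, adjusted p = 0.00751). TAP1, which carries peptides to MHC class I, rose by 1.21 in WT and 0.63 in MUT, for a response difference of -0.58 (SE 0.106, adjusted p = 0.0146). TAP1 missed the threshold without treated MUT replicate 3 (adjusted p = 0.0521). PGF, a growth factor of the VEGF family, rose from 4.95–5.93 to 41.3–48.9 CPM in WT, while in MUT it went from 6.54–11.1 to 39.02–44.2 CPM. Its difference was -0.89 (SE 0.189, adjusted p = 0.0282), and it passed in 3 of the 12 fits without 1 library. The imprinted non-coding RNA H19 rose from 1.22–2.16 to 14.3–16.2 CPM in WT, while in MUT it went from 3.14–5.41 to 12.9–15.2 CPM. The treated groups overlapped, and the untreated groups did not. The difference was -1.34 (SE 0.302, adjusted p = 0.0362), and it passed in 3 of the 12 fits, with adjusted p up to 0.111.

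The falls that were blunted in MUT included CCDC144NL, a gene on chromosome 17 (20836447 to 20896141, minus strand, hg38). It fell from 34.9, 34.4 and 32.7 CPM to 7.84, 6.86 and 8.32 CPM in WT and from 44.4, 29.6 and 32.4 CPM to 17.05, 17.7 and 22.6 CPM in MUT. The untreated groups overlapped, and the lowest treated MUT library was above the highest treated WT library. The difference was 1.25 (SE 0.185, adjusted p = 0.00307). CCDC144NL-AS1, which overlaps it on the other strand (20868433 to 21002277), also fell in both lines (-1.46 and -0.84) and passed in 7 of the 12 fits. Since the handling of strand is not given, reads of the pair may not be separable. The pseudogene AC097374.1 fell from 35.5–42.3 to 10.00–13.2 CPM in WT, while in MUT it went from 36.7–50.4 to 26.00–31.5 CPM, for a response difference of 1.12 (SE 0.165, adjusted p = 0.00307). It lies on chromosome 2 (94867486 to 94947342) beside another called pseudogene, ANKRD20A8P (94791103 to 94857283), which fell from 4.34–5.34 to 1.06–1.95 CPM in WT and measured 3.03–4.76 and 3.34–3.92 CPM in MUT. The difference for ANKRD20A8P was 1.43 (SE 0.302, adjusted p = 0.0279). ANKRD20A8P missed the threshold without any 1 of 7 libraries (treated MUT replicates 1 and 3, treated WT replicates 2 and 3, untreated WT replicates 1, 2 and 3), with adjusted p from 0.0502 to 0.0849. Both are members of repeated families whose reads the counting may have split.

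Other genes responded past the threshold in WT alone. GCNT2, a glycosyltransferase that branches surface glycans, was at 7.80, 6.77 and 9.02 CPM in untreated WT and 14.9, 16.6 and 15.5 CPM in treated WT. In MUT it was at 25.5, 28.3 and 25.8 CPM untreated and 23.99, 24.8 and 27.6 CPM treated, above every WT library. The difference was -1.05 (SE 0.148, adjusted p = 0.00307). ARRB1, an adaptor that desensitizes G protein-coupled receptors, was at 12.3–13.8 CPM in untreated WT and 22.1–25.7 in treated WT, and at 16.1–20.1 and 14.2–17.8 in MUT, for a response difference of -1.01 (SE 0.151, adjusted p = 0.00307). KCTD11, an adaptor of a cullin ubiquitin ligase, rose from 28.1–30.2 to 45.9–50.6 CPM in WT and measured 25.4–28.5 and 28.9–29.97 CPM in MUT. All treated WT libraries lay above all libraries of the other 3 groups. Its difference was -0.61 (SE 0.0989, adjusted p = 0.00615). The histone gene HIST1H2AG was at 9.51, 11.5 and 10.4 CPM in untreated WT and 20.9, 22.5 and 21.03 in treated WT, against 7.22–7.82 and 5.98–7.87 in MUT, for a response difference of -1.08 (SE 0.162, adjusted p = 0.00307). Histone genes are near-identical copies, so its reads are uncertain.

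ESM1, a secreted proteoglycan of activated endothelium also made by tumour cells, rose from 14.1, 13.97 and 11.4 CPM to 34.4, 46.4 and 41.3 CPM in WT. In MUT it was at 3.71, 2.26 and 5.65 CPM untreated and 3.65, 4.69 and 4.40 CPM treated, below every WT library in both states. The difference was -1.50 (SE 0.2998, adjusted p = 0.0223). ESM1 missed the threshold without any 1 of 5 libraries (treated MUT replicates 1 and 3, treated WT replicates 2 and 3, untreated WT replicate 3), with adjusted p from 0.0569 to 0.0757. ATOH8, a basic helix-loop-helix factor, fell from 2.86–3.58 to 0.974–2.03 CPM in WT and measured 5.97–6.80 and 7.33–9.54 CPM in MUT, for a response difference of 1.44 (SE 0.301, adjusted p = 0.0272). ATOH8 missed the threshold without any 1 of 7 libraries (treated MUT replicates 1 and 3, treated WT replicates 1 and 2, untreated WT replicates 1, 2 and 3), with adjusted p from 0.0534 to 0.0814. The unclassified transcript AP001972.5, next to ARRB1 on chromosome 11 (75260129 to 75262467), rose from 2.59–3.35 to 6.58–8.54 CPM in WT and measured 4.01–4.57 and 3.83–4.92 CPM in MUT. Its difference was -1.24 (SE 0.223, adjusted p = 0.0123). AP001972.5 missed the threshold without treated WT replicate 2 (adjusted p = 0.0545). TGFB2, a ligand of the transforming growth factor β family, fell from 184, 189.9 and 195 CPM to 135, 125 and 122 CPM in WT. It was at 170.2, 179 and 177 CPM in untreated and 184, 178 and 175 CPM in treated MUT, for a response difference of 0.60 (SE 0.101, adjusted p = 0.00737).

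Rises that were stronger in MUT included those of SEMA3A and SEMA3B, class 3 semaphorins, which are secreted guidance cues that act on neuropilin and plexin receptors. SEMA3A was at 16.8, 14.7 and 18.6 CPM in untreated WT and 22.4, 18.7 and 24.5 CPM in treated WT. In MUT it was at 4.91, 5.79 and 4.51 CPM untreated and 21.6, 16.3 and 20.4 CPM treated. The untreated lines were far apart and the treated lines overlapped. The rise was 1.31-fold in WT and 3.84-fold in MUT, for a response difference of 1.55 (SE 0.212, adjusted p = 0.00289). SEMA3B showed the other pattern, with 5.50–6.28 and 6.04–7.37 CPM in untreated WT and MUT, 10.4, 11.1 and 11.02 CPM in treated WT and 28.1, 23.7 and 30.6 CPM in treated MUT. Its lines overlapped before treatment and not after it, and the difference was 1.12 (SE 0.183, adjusted p = 0.00615). SEMA3E rose past the threshold in MUT alone, from 24.5–26.5 to 39.98–40.7 CPM, and measured 43.8–48.9 and 45.6–51.6 CPM in WT. Its difference was 0.63 (SE 0.101, adjusted p = 0.00586). SEMA3C also passed in MUT alone, with a difference of 0.37 (SE 0.0869, adjusted p = 0.0474), but in only 2 of the 12 fits without 1 library.

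Of the 47 tested genes of the list of semaphorins, angiogenic and growth factors, 6 had a positive and 2 a negative difference past the threshold. That is 17.02%, against 1.00% of all genes, and the list was chosen with results of these libraries known. Without 1 library 5 to 13 members passed. The 6 were FGF2, SEMA3A, SEMA3B, SEMA3C, SEMA3E and TGFB2, and the 2 were ESM1 and PGF. The list's median difference was 0.08, with 27 members above 0 and 20 below, and it was -0.01 without untreated MUT replicate 2. For all tested genes the median was -0.002, with 9053 above 0 and 9173 below.

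The 3 called genes of the matrix list were fibrillar collagens, all with a positive difference. COL11A1 rose from 17.9, 17.5 and 15.3 CPM to 40.2, 33.3 and 37.96 CPM in WT and from 14.9, 13.6 and 11.8 CPM to 58.1, 52.96 and 58.1 CPM in MUT. MUT was lower before treatment and higher after it, with no overlap in either state. The rise was 2.20-fold in WT and 4.19-fold in MUT, for a response difference of 0.93 (SE 0.134, adjusted p = 0.00307). COL3A1 was at 23.4, 27.3 and 22.1 CPM in untreated WT and 22.03, 23.5 and 20.99 in treated WT, and went from 8.93, 7.99 and 8.11 CPM to 18.7, 16.5 and 19.8 CPM in MUT. It rose in MUT alone towards the level that WT had in both states, for a response difference of 1.26 (SE 0.188, adjusted p = 0.00307). COL1A1 rose from 139–184 to 237–294 CPM in MUT and measured 60.8–68.5 and 62.6–72.9 CPM in WT. Its difference was 0.62 (SE 0.144, adjusted p = 0.0446), passed in 3 of the 12 fits. LOXL3, an oxidase that cross-links collagen, rose in MUT alone, from 8.22–8.99 to 15.8–18.1 CPM, while WT measured 6.82–8.10 and 8.07–8.54 CPM, for a response difference of 0.88 (SE 0.149, adjusted p = 0.00763).

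Of 53 tested matrix and matrix protease genes, 3 had a positive difference past the threshold (5.66%, against 0.510% of all tested genes) and none a negative one. This list too was chosen with results of these libraries known, so its share describes that choice in part. Without 1 library 2 to 6 members passed. The median difference was 0.18, with 41 members above 0 and 12 below. Over the alternatives the median stayed between 0.11 and 0.25. The summed level of the list was 7693, 7611 and 7702 CPM in untreated WT, 7509, 7299 and 7465 in treated WT, 7051, 6766 and 6004 in untreated MUT and 8024, 7489.9 and 7818 in treated MUT. The untreated MUT libraries were below the untreated WT libraries, with replicate 3 the lowest.

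**Figure D2:**
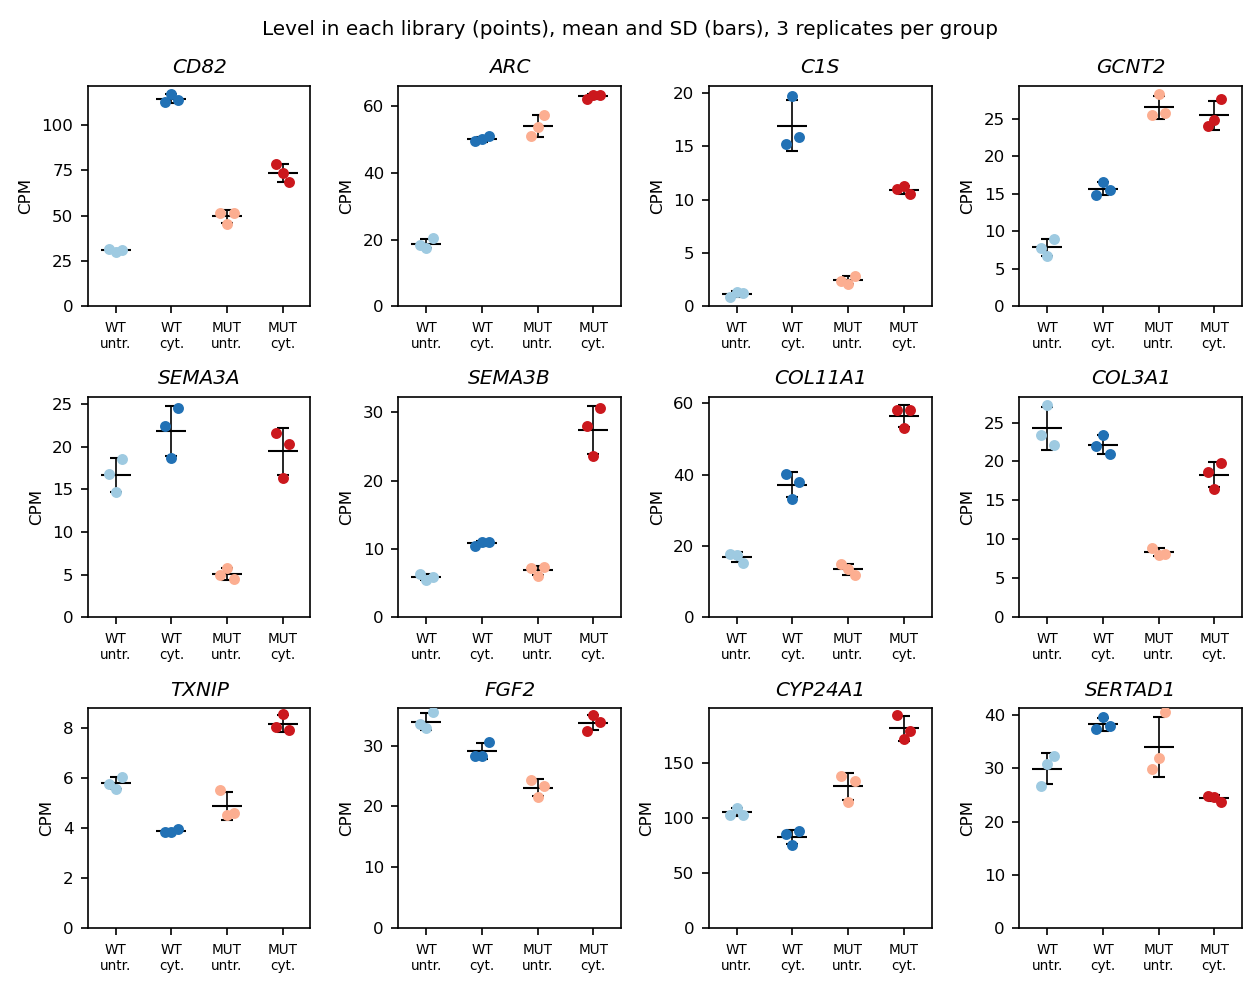
Points are CPM of 12 genes in each of 3 replicate libraries per group, with the group mean and SD as bars; every vertical axis starts at 0. CD82 and C1S start higher and end lower in MUT, SEMA3A and COL3A1 start lower and end near WT, and TXNIP, FGF2 and CYP24A1 fall in WT and rise in MUT.

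TXNIP led the genes with opposite responses. It encodes a thioredoxin-binding protein that limits glucose uptake. It fell from 5.79, 5.56 and 6.05 CPM to 3.85, 3.84 and 3.96 CPM in WT and rose from 5.52, 4.53 and 4.63 CPM to 8.04, 8.57 and 7.93 CPM in MUT. Every treated MUT library was above all other libraries of the 2 lines. The difference was 1.31 (SE 0.173, adjusted p = 0.00215). FGF2, a fibroblast growth factor, fell from 33.5, 32.8 and 35.5 CPM to 28.3, 28.3 and 30.6 CPM in WT and rose from 24.3, 21.6 and 23.4 CPM to 32.4, 34.95 and 33.9 CPM in MUT, for a response difference of 0.77 (SE 0.114, adjusted p = 0.00307). Treated MUT libraries ended near the untreated WT level. CYP24A1, the enzyme that inactivates vitamin D, fell from 103, 109 and 103 CPM to 85.1, 75.5 and 87.95 CPM in WT. In MUT it rose from 138, 115 and 133 CPM to 194, 171 and 178 CPM, for a response difference of 0.83 (SE 0.119, adjusted p = 0.00307). SERTAD1, a transcriptional co-regulator that binds CDK4, ran the other way, from 26.7, 30.8 and 32.2 CPM to 37.3, 39.5 and 37.9 CPM in WT and from 29.8, 31.9 and 40.4 CPM to 24.8, 24.6 and 23.7 CPM in MUT. Its treated groups were apart and its untreated groups overlapped, with a difference of -0.84 (SE 0.134, adjusted p = 0.00586). ADGRE1, an adhesion receptor known from macrophages, was low, at 2.16–3.46 and 4.26–4.65 CPM in WT and 5.72–8.51 and 4.02–4.97 CPM in MUT. Its difference was -1.20 (SE 0.271, adjusted p = 0.0362), and it passed in 3 of the 12 fits.

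Of the 25 genes with opposite responses, 10 passed in all 12 fits without 1 library. Besides TXNIP, FGF2, CYP24A1 and SERTAD1 these were PIM1, JMY, HAPLN1, SYDE2, TNFRSF11B and MAF, which are named because of these values. PIM1, a survival kinase, fell by 0.37 in WT and rose by 0.42 in MUT on the log2 scale. JMY, a co-factor of p53 and actin nucleator, fell by 0.45 and rose by 0.41. TNFRSF11B, the decoy receptor osteoprotegerin, fell by 0.43 and rose by 0.28, and HAPLN1, which links hyaluronan to proteoglycans, fell by 0.40 and rose by 0.34. The transcription factor MAF fell by 0.65 and rose by 0.37. Over the 25 genes with opposite responses the median size was 0.37 in WT and 0.35 in MUT, and that of the difference was 0.74. ASNS, asparagine synthetase, was the 1 of 28 tested genes of the integrated stress response list past the threshold (3.57%, against 1.00% of all tested genes). It measured 174, 162 and 168 CPM in untreated WT, 216, 211 and 205 in treated WT, 214, 226 and 278 in untreated MUT and 199.8, 213 and 213 in treated MUT. Untreated MUT replicate 3 was the highest of these. The difference was -0.53 (SE 0.115, adjusted p = 0.0317), passed in 3 of the 12 fits.

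Genes outside these groups also responded more in MUT. PDP1, a phosphatase that switches on pyruvate dehydrogenase, rose in MUT alone, from 48.9–56.5 to 77.6–93.3 CPM, and measured 69.9–74.03 and 62.96–74.3 CPM in WT, for a response difference of 0.75 (SE 0.119, adjusted p = 0.00586). TMEM126A, a mitochondrial protein needed to assemble complex I, fell from 25.2, 23.8 and 27.00 CPM to 18.5, 16.8 and 16.5 CPM in WT and from 27.9, 32.4 and 37.7 CPM to 11.9, 11.3 and 12.99 CPM in MUT. MUT was higher before treatment and lower after it. The fall was 1.47-fold in WT and 2.70-fold in MUT, for a response difference of -0.88 (SE 0.145, adjusted p = 0.00637). NCKAP5 rose from 1.11–1.67 to 8.66–10.1 CPM in WT, while in MUT it went from 0.628–0.818 to 10.4–14.3 CPM. Its difference was 1.36 (SE 0.290, adjusted p = 0.0285). NCKAP5 missed the threshold without any 1 of 7 libraries (treated MUT replicates 1 and 2, untreated MUT replicate 3, treated WT replicates 2 and 3, untreated WT replicates 1 and 3), with adjusted p from 0.0514 to 0.0921.

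Members of several lists of basic cell functions had negative differences. The lists of glycolysis, the proteasome, ribosome biogenesis and antigen presentation genes were chosen after the called genes had been seen, so their counts describe that choice. All 37 tested proteasome subunits, which form the protease that degrades ubiquitin-tagged proteins, had a negative difference, with a median of -0.32. Of all 18226 tested genes, 9173 had a negative difference. PSMA5, PSMB7 and PSMD14 passed the threshold (8.11%, against 0.494% of all tested genes), in 3, 4 and 3 of the 12 fits without 1 library. Without 1 library the median lay between -0.41 and -0.24 and 0 to 18 members passed, and the fit without untreated MUT replicate 3 gave -0.24. The summed level was 7978, 7948 and 7929 CPM in untreated WT and 5623, 5822 and 5823 CPM in treated WT. In MUT it was 8511, 8809 and 10288 CPM untreated and 5151, 5233 and 5292 CPM treated. MUT was above WT in every untreated library and below it in every treated library, and untreated replicate 3 was the highest.

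Glycolysis genes, whose enzymes turn glucose into pyruvate and lactate, had a median difference of -0.38, with 21 of 22 below 0. ALDOA, LDHA, PFKFB4, PGAM1, SLC2A1 and TPI1 passed the threshold (27.3%, against 0.494% of all tested genes), all negative. LDHA, lactate dehydrogenase A, measured 1054, 1031 and 1046 CPM in untreated WT, 781, 787 and 791 in treated WT, 1224, 1383 and 1613 in untreated MUT and 681, 729.6 and 729 in treated MUT. MUT was higher before and lower after treatment in each library. Its difference was -0.57 (SE 0.122, adjusted p = 0.0289), passed in 3 of the 12 fits. SLC2A1, the glucose transporter GLUT1, fell by 0.24 in WT and 0.66 in MUT on the log2 scale, for a response difference of -0.42 (SE 0.0820, adjusted p = 0.0198), passed in 7 of the 12. PFKFB4, which makes an activator of glycolysis, rose in both lines, by 1.21 and 0.47, and passed in 4 of the 12. ALDOA, PGAM1 and TPI1 passed in 3 each. The number of glycolysis genes called ran from 0 to 12 over the fits without 1 library. The summed level was 16462, 15944 and 16027 CPM in untreated WT and 12103, 12187 and 12099 CPM in treated WT. In MUT it was 17587, 20409 and 21826 CPM untreated, above all untreated WT libraries, and 11385, 11372 and 11599 CPM treated, below all treated WT libraries.

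Ribosome biogenesis genes, which process and assemble ribosomal RNA and proteins, fell in both lines, 76 of 78 in WT and 77 of 78 in MUT. Their median difference was -0.20, with 71 below 0. CMSS1, EBNA1BP2, IMP4, NOC2L and RRP9 passed, all negative (6.41%, against 0.494% of all tested genes). They did so in 3, 4, 6, 9 and 4 of the 12 fits, and 0 to 15 members passed in the fits without 1 library. NOC2L fell from 199–203 to 111–123 CPM in WT, while in MUT it went from 228–263 to 94.4–108 CPM, for a response difference of -0.51 (SE 0.0951, adjusted p = 0.0155). NOC2L missed the threshold without any 1 of 3 libraries (treated MUT replicates 1 and 3, treated WT replicate 2), with adjusted p from 0.0506 to 0.0666. In the antigen presentation list the median difference was -0.17, 19 of 22 were below 0, and TAP1 and its neighbour PSMB8, an immunoproteasome subunit, passed (9.09%, against 1.00% of all tested genes). That median was -0.37 without untreated MUT replicate 2, and -0.09 both without untreated MUT replicate 3 and with library totals alone, and 0 to 4 members passed without 1 library. PSMB8 rose past the threshold in WT alone, from 47.1–51.1 to 69.8–80.7 CPM, and measured 59.5–72.6 and 70.3–73.6 CPM in MUT. Its difference was -0.50 (SE 0.105, adjusted p = 0.0272), passed in 4 of the 12 fits.

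**Figure D3:**
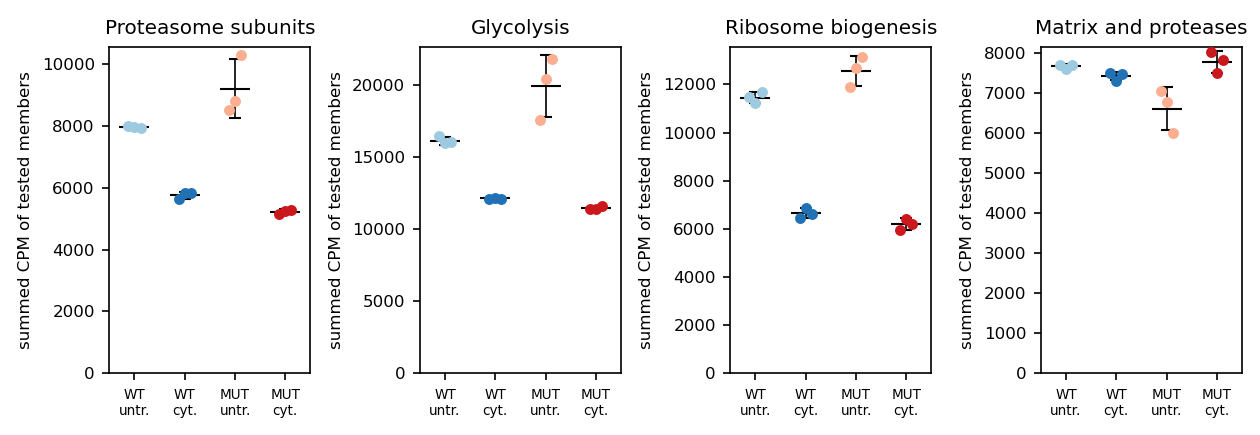
Points are the summed CPM of the tested genes of 4 lists in each library, with the mean and SD of the 3 replicates per group as bars; axes start at 0. The proteasome and glycolysis sums are higher in untreated MUT than in untreated WT and lower in treated MUT than in treated WT, and the untreated MUT points spread the most.

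Among 24 tested genes of cholesterol synthesis, DHCR7, FDFT1, HMGCS1 and NSDHL had a negative difference past the threshold (16.7%, against 0.494% of all tested genes) and none a positive one. The list was chosen with results of these libraries known, so its share describes that choice in part. Without 1 library 0 to 7 members passed. The median difference of the 24 genes was -0.18, with 18 below 0. It was -0.28 without untreated MUT replicate 2 and -0.10 with library totals alone, where 1 member passed. HMGCS1, which makes the precursor of mevalonate, fell from 194–207 to 146–161 CPM in WT, while in MUT it went from 219–249 to 123–145 CPM, for a response difference of -0.44 (SE 0.0998, adjusted p = 0.0385). DHCR7, which makes the last step to cholesterol, fell in MUT alone, from 164–196 to 116–123 CPM, and measured 158–177 and 157–160.0 CPM in WT. Its difference was -0.47 (SE 0.104, adjusted p = 0.0331). FDFT1, squalene synthase, and NSDHL, a sterol dehydrogenase, also fell in MUT alone, with differences of -0.38 and -0.52. HMGCS1, DHCR7, FDFT1 and NSDHL passed in 4, 3, 3 and 8 of the 12 fits without 1 library. Clustered histone genes had a median difference of -0.40, with 13 of 16 below 0 (-0.26 without treated WT replicate 3). Past the threshold, 10 fell and 1 rose in WT, and 10 fell and 0 rose in MUT, with median responses of -0.75 and -1.16. HIST1H2AG was the 1 with a different response past the threshold (6.25%, against 0.494% of all tested genes). It was also the 1 that rose in WT, so it does not stand for the list.

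With all libraries, edgeR called no member of the lists closest to the drug's known action, against 1.00% of all tested genes. For lists of this size, no call is near that share. Of 33 p53 targets, 27 rose in WT and 25 in MUT, and edgeR called a different response for 0. The unadjusted p was under 0.05 for 5, DESeq2 called 3 and limma voom 1, against 15.4%, 4.36% and 1.92% of all tested genes. Without untreated MUT replicate 2 edgeR called 4, all negative. Their median difference was -0.06 and lay between -0.13 and 0.02 over the alternatives, so that its sign depended on the scaling. CDKN1A, the p53-induced cell cycle inhibitor, measured 423, 404 and 399 CPM in untreated WT, 1014, 1031 and 1062 in treated WT, 268, 229 and 259.7 in untreated MUT and 660.5, 666 and 663 in treated MUT. It rose 2.53-fold in WT and 2.63-fold in MUT, for a response difference of 0.05 (SE 0.0848, adjusted p = 0.832). The differences of MDM2, the ubiquitin ligase of p53, and GDF15, a stress-induced cytokine, were -0.03 (SE 0.162, adjusted p = 0.963) and -0.33 (SE 0.186, adjusted p = 0.417). GDF15 passed without untreated MUT replicate 2, at -0.56 (adjusted p = 0.0272). Cell cycle lists also held no call by edgeR, with none among 44 genes of replication and E2F control, 42 genes of mitosis and G2 and 39 genes of fork protection and checkpoints (0 in each). The unadjusted p was under 0.05 for 7, 2 and 6, DESeq2 called 5, 2 and 2, and limma voom 1, 1 and 0. Without 1 library edgeR called up to 2, 1 and 3. The differences of the cyclins CCNE2 and CCNB1 were -0.04 (SE 0.194, adjusted p = 0.947) and -0.27 (SE 0.0962, adjusted p = 0.180), and DESeq2 called CCNB1 (adjusted p = 0.0283).

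Genes that handle cytarabine also gave no call. DCK, the kinase that activates the drug, measured 62.5, 69.1 and 66.00 CPM in untreated WT, 73.2, 73.5 and 68.4 in treated WT, 58.4, 44.2 and 64.6 in untreated MUT and 72.1, 69.6 and 75.2 in treated MUT. Its difference was 0.25 (SE 0.142, adjusted p = 0.414). CDA, the deaminase that inactivates the drug, had a difference of -0.67 (SE 0.262, adjusted p = 0.220), the widest of these. Its mean was 0.884 CPM in untreated and 2.63 in treated WT, and 5.07 and 9.43 CPM in MUT. The differences of SAMHD1, which breaks down the active triphosphate, SLC29A1, its main transporter into cells, and RRM2, a ribonucleotide reductase subunit, were -0.05 (SE 0.0990, adjusted p = 0.864), -0.14 (SE 0.0952, adjusted p = 0.516) and -0.07 (SE 0.0902, adjusted p = 0.768). The levels of CDA, SAMHD1 and RRM2 were higher in MUT past the threshold in both states. MUT minus WT was 2.51, 0.45 and 0.69 untreated and 1.84, 0.40 and 0.62 treated on the log2 scale. DCK and SLC29A1 did not differ past the threshold in either state. By edgeR 0 of 19 genes of this list were called for a different response, against 1.00% of all tested genes. The unadjusted p was under 0.05 for 5 (26.3%), and DESeq2 and limma voom each called 1 (5.26%). Over all tested genes these shares were 15.4%, 4.36% and 1.92%. EdgeR called 1 when any 1 of the untreated MUT libraries was left out. None was called by edgeR among 33 interferon-stimulated genes, 27 cytokine and NF-kB genes, 24 genes of the immediate early list, which does not hold ARC, 27 BCL2 family and death receptor genes and 14 DNA methylation writers and erasers. The unadjusted p was under 0.05 for 9, 7, 7, 7 and 0 of these (27.3%, 25.9%, 29.2%, 25.9% and 0%), against 15.4% of all tested genes. DESeq2 called 1, 4, 0, 4 and 0 (3.03%, 14.8%, 0%, 14.8% and 0%), against 4.36% of all tested genes. By limma voom it was 1, 2, 1, 0 and 0 (3.03%, 7.41%, 4.17%, 0% and 0%), against 1.92%. Without 1 library edgeR called up to 1, 5, 4, 4 and 1. A missed threshold does not show equal responses.

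A response difference can stand between the lines before treatment, after it, or in both states. Of the 183 genes, 65 differed between MUT and WT in the untreated cells alone, 64 in the treated cells alone and 54 in both. Over all tested genes 21.2% differed untreated and 19.8% treated. Both line differences enter the response difference, so these counts describe where it lies. SEMA3A and COL3A1 were examples of the first kind, with MUT minus WT of -1.72 and -1.54 untreated and -0.17 and -0.27 treated. SEMA3B, LOXL3 and TXNIP were examples of the second, with 0.22, 0.16 and -0.24 untreated and 1.34, 1.04 and 1.07 treated. CD82 and C1S changed sign, from 0.68 and 1.10 to -0.64 and -0.63. Among the stronger responses 24 of 48 differed in the untreated cells alone, and among those past the threshold in WT alone 17 of 34 differed in the treated cells alone.

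**Figure D4:**
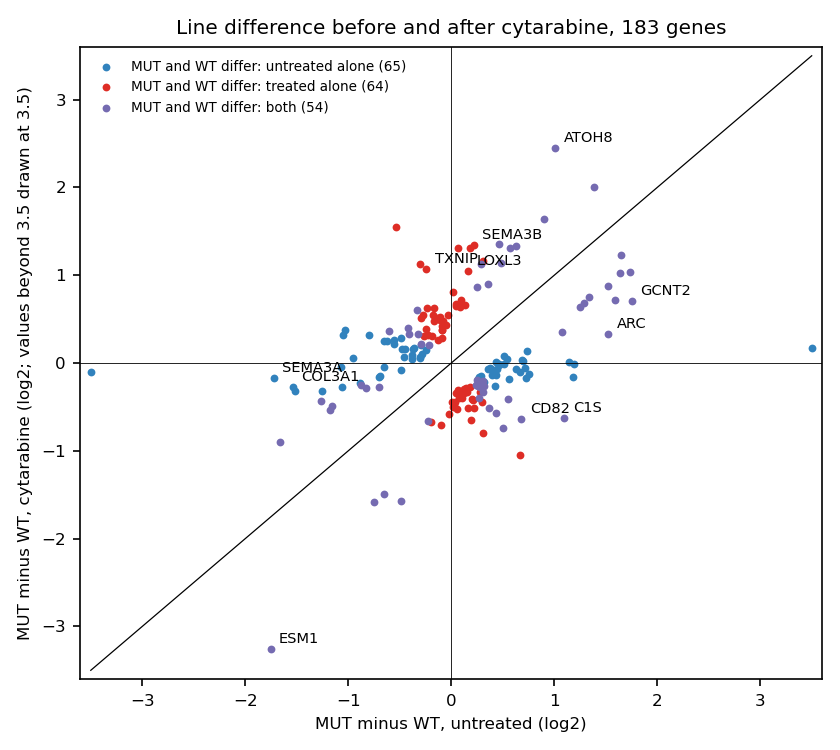
Each of the 183 genes is placed by the log2 difference between MUT and WT in untreated (horizontal) and treated cells (vertical); colours show in which state the lines differed, and the diagonal marks no response difference. Points along the horizontal axis, such as SEMA3A and COL3A1, differ before treatment, and points along the vertical axis, such as SEMA3B and LOXL3, differ after it.

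The EV line, which shares no library with either response, gave another value for each gene. Its response lay between those of WT and MUT for 156 of the 183 genes, beyond the WT value for 17 and beyond the MUT value for 10. The 183 genes were chosen for a wide gap between WT and MUT, so a value between them is likely by that choice. The share over all tested genes was not counted. The biological coefficient of variation was 0.0398 in untreated EV and 0.133 in treated EV. The EV response was nearer to MUT for 90 genes and nearer to WT for 93. By class, EV was nearer to WT for 39 of the 48 stronger responses, and nearer to MUT for 25 of the 38 weaker ones and 23 of the 34 seen in WT alone. These classes are set by which line responded more, so EV lying nearer the other line follows in part from that choice. The counts therefore do not show which line departed from EV. CD82 rose 2.18-fold in EV, between the 1.48-fold of MUT and the 3.70-fold of WT. SEMA3A and SEMA3B rose in EV by 1.75 and 1.96 on the log2 scale, close to 1.94 and 2.00 in MUT. CCDC144NL and AC097374.1 fell in EV by 0.67 and 0.57, near the 0.89 and 0.57 of MUT, against the 2.14 and 1.69 of WT. TMEM126A fell in EV by 0.57, next to 0.55 in WT. Of the 25 genes with opposite responses, EV passed the threshold for 4, with a median size of 0.09.

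**Figure D5:**
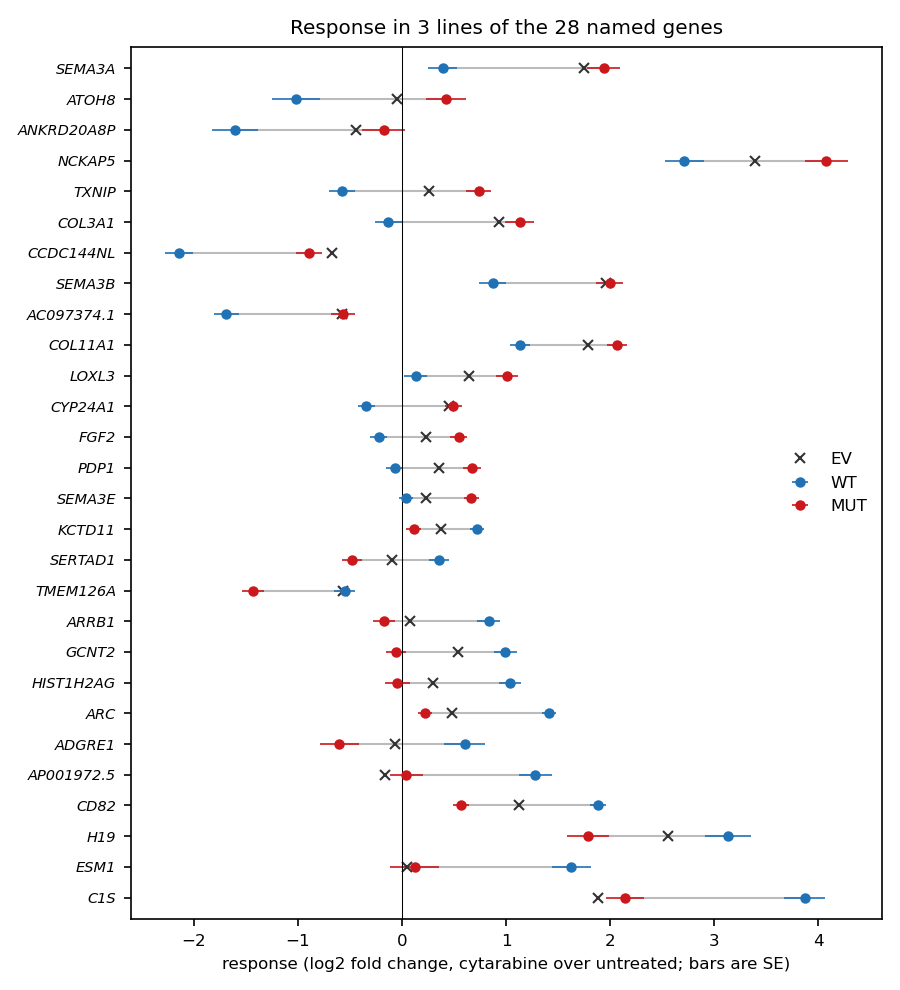
For the 28 genes named by the rule, points are the log2 fold change with cytarabine in WT and MUT with standard errors and crosses are the value in EV, ordered by the difference between MUT and WT. The standard errors come from the fit that assumes equal spread in all groups. The EV cross lies near MUT for SEMA3B and AC097374.1 and near WT for TMEM126A.

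The stretches upstream of 3 of these genes are shown because DNMT3A acts on CpG and the genes stand for a blunted rise (CD82), a stronger rise (COL11A1) and opposite responses (FGF2). Each is the 250 bases before the start listed by RefSeq on GRCh38.p14, 5′ to 3′, with every CG in capitals. CD82 lies at chr11:44565413-44565662 on the plus strand, COL11A1 at chr1:103108523-103108772 on the minus strand and FGF2 at chr4:122826581-122826830 on the plus strand.
CD82: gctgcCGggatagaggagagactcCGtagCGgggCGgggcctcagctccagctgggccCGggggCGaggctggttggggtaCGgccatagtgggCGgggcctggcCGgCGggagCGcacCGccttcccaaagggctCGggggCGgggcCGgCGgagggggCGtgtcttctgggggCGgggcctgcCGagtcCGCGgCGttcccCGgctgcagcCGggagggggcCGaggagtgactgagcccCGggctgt
COL11A1: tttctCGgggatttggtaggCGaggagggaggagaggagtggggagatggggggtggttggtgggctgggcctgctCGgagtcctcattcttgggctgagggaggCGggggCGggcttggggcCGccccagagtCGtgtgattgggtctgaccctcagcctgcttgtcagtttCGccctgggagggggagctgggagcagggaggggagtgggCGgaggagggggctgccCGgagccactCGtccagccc
FGF2: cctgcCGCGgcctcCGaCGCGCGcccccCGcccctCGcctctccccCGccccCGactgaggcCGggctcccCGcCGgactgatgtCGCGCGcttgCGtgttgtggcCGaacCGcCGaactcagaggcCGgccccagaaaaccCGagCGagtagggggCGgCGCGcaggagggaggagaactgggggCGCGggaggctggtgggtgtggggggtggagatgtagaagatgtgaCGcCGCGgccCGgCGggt
They hold 26, 11 and 33 CG pairs. Such a stretch was at hand for 11750 of the 18226 tested genes (64.5%), fewer than the 80% needed, so a comparison of CG content over the called genes is not reported here. Methylation was not measured in these libraries.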

How the data were processed

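The authors deposited estimated counts per gene for 18 libraries, which were not normalized, and a normalized signal, whose values equal 1 plus the estimated count times a scaling factor of the library (used in 1 alternative). The submitters' processing notes name CASAVA, STAR 2.6.1d and hg38; which program counted reads, and how it treated strand and multiply matching reads, is not given in the sources used here. Estimated counts (70.4% were whole) were rounded and tested in edgeR 4.0.16 (R 4.3.3): filterByExpr, TMM, 1 quasi-likelihood fit of all 18 libraries with 6 group coefficients, and Benjamini-Hochberg adjustment over 18226 genes. The shared estimate assumes equal spread in all groups. CPM use TMM-scaled totals. Standard errors are the absolute log2 value divided by the square root of F. Groups came from sample titles, and replicates are labelled biological triplicates of cultures. Differences in response share the libraries of both lines.

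Named genes were, in each class, the 4 with the smallest p, and the 6 largest differences in each direction, whose mean log2 CPM reached 1, with no overlap between lines in each treated library's change from the mean of its line's untreated libraries, plus called list members and 11 genes of drug response. The members and lists were chosen with earlier results of these data known, 4 lists after the called genes were seen. Dates stood in place of 26 symbols, and none of these is named. A marker in the list of other cell types is not reported here. Alternatives were limma 3.58.1 voom, DESeq2 1.42.0, other scalings and filters, a replicate block and leaving out each library. The replicate libraries of a group differed by more than sampling noise.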

Additional observations from a re-analysis of the deposited data

Results flagged for a closer look

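The lines differed in their response to cytarabine for 183 genes, by the edgeR test of the difference itself. The named genes were picked out by the same test, and each value here is the log2 difference, MUT minus WT. Only the 28 genes named by smallest p in a class or by size of the difference are listed here. Among those that passed in all 12 fits without 1 library, the negative differences were C1S -1.73, CD82 -1.32, ARC -1.20, HIST1H2AG -1.08, GCNT2 -1.05, ARRB1 -1.01, TMEM126A -0.88, SERTAD1 -0.84, KCTD11 -0.61. The positive ones were SEMA3E 0.63, PDP1 0.75, FGF2 0.77, CYP24A1 0.83, LOXL3 0.88, COL11A1 0.93, AC097374.1 1.12, SEMA3B 1.12, CCDC144NL 1.25, COL3A1 1.26, TXNIP 1.31, SEMA3A 1.55. Those of the 28 that missed the threshold in at least 1 of those fits were ESM1 -1.50, H19 -1.34, AP001972.5 -1.24, ADGRE1 -1.20, NCKAP5 1.36, ANKRD20A8P 1.43, ATOH8 1.44. Called list members outside the 28, such as PGF, COL1A1 and LDHA, also missed it in some fits. The biological coefficient of variation of the untreated MUT libraries (0.216) was the highest of the 4 groups, and its part in these results was not tested.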

How the results depend on the processing

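Against 183 genes with a different response, 51 were called in a fit of the 12 libraries alone, 278 with DESeq2 size factors, 375 with a mean of at least 50 counts (36.3% positive), 156 with no low-count filter (41.0% positive), 795 by DESeq2 (22.8% positive), 350 by limma voom with sample weights and 2 by a test against a log2 difference of 0.5 (glmTreat). Alternatives chosen after seeing the data gave 295 for protein-coding genes alone and 196 with the authors' factors. Without 1 library the count ran from 38 to 810. No scaling moved the median difference of all genes by more than 0.1. The glmTreat test called 2855 responses in WT, 4000 in MUT and 2788 in EV, and 379 untreated and 416 treated line differences. The treated line differences numbered 6207 by limma voom and 2313 to 4859 without 1 library. In the 12-library fit the stronger, weaker, opposite, MUT alone and WT alone classes held 8, 10, 12, 12 and 9 genes, and 69 of the 183 had opposite signs by sign alone. Replicate numbers did not pair the samples: same-numbered samples' deviations correlated at -0.282 to 0.375 and 1 of 12 samples correlated best with its own number. With the replicate number as a block 166 genes were called, 155 of them among the 183. Among genes that were not called, the difference changed sign with library totals alone for CCNE2 (0.0287), MDM2 (0.0534), RRM2 (0.00723) and SAMHD1 (0.0274). By limma voom it did so for MDM2 (0.0557), RRM2 (0.00673) and SAMHD1 (0.0428). Without 1 library it ran from -0.200 to 0.0917 for CCNE2, from -0.156 to 0.0909 for MDM2, from -0.0500 to 0.0972 for CDKN1A and from -0.526 to 0.0383 for DNMT3A, which passed the threshold without untreated MUT replicate 3. The causes were not tested. With 3 replicates a group, a missed call may reflect the spread of untreated MUT as well as depth, which was not tested.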

Other observations

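Of the 183 genes, 171 were protein-coding (93.4%, against 78.5% of tested genes). Chromosome 1 held 28 of them (15.3%, against 9.78% of tested genes) and chromosome 2 held 19 (10.4%, against 6.70%). The 6 called genes of chromosome 4 all had a positive difference, and 9 of the 10 called genes of chromosome 11 had a negative one. These shares describe the called genes and were not tested. CDKN1B, the cell cycle inhibitor p27, and RUNX1, a transcription factor of blood formation, fell past the threshold in WT alone, by 0.54 and 0.58 on the log2 scale, and measured -0.06 and -0.11 in MUT. The differences were 0.48 (SE 0.101, adjusted p = 0.0272) and 0.46 (SE 0.1003, adjusted p = 0.0316) by edgeR. These genes were chosen after their values were seen and passed in 4 and 3 of the 12 fits without 1 library.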
